A study of Mus musculus with 12 samples.

Results

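The microRNA genes of the Dlk1-Dio3 cluster, a stretch of mouse chromosome 12, were followed on 12 arrays of quadriceps muscle from 7-day-old C57Bl/6 mice. The members were the probe sets that carry 1 gene symbol, with a symbol of Mir and a number, whose gene lies between Dlk1 and Dio3 in RefSeq. The rule found 40 genes with 1 probe set each, of 19938 genes measured in all. RefSeq places 61 microRNA genes in the interval. Of these, 2 share a probe set with another gene and 19 have no listed probe set, and they were not analysed here. The family was chosen for description because Mir136, Mir434, Mir127 and Mir380 had been among the largest falls in this same comparison. Its differences are therefore a description with no test.

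The study compared 6 mice deficient in cofilin-2, a muscle protein that helps to take actin filaments apart, with 6 wild type littermates. By the methods the mice were collected as pairs of a deficient and a wild type littermate, but the labels do not say which arrays form a pair, and the arrays were compared as 2 groups. Each array held total RNA of a separate untreated animal. The genotype labels read cofilin-2 null (KO) and wildtype (WT). Which part of Cfl2 was deleted is not given in the sources used here. Cfl2 went against the labels. Its log2 level was 4.92, 6.06 and 7.71 (lowest, median and highest) on the arrays labelled WT and 12.31, 12.40 and 12.43 on those labelled KO, with a difference of 6.32 ± 0.36 (SE) and a limma adjusted p of 1.98e-07. All directions below are those of the labels as deposited, and for Cfl2, Rtl1, Ucp1, Lep and Myh8 they oppose the direction that the study's text gives. No array was moved. Were the labels of the groups exchanged, every lower below would read higher and every higher lower. The microRNA levels that the study measured by a separate assay are not analysed here. The array medians over the tested probe sets were 7.08 to 7.13 under the WT label and 7.16 to 7.18 under KO, without overlap. The median difference over all probe sets was -0.02, and the muscle genes Ckm (13.37 to 13.39) and Acta1 (13.65 to 13.72) had high mean levels under both labels. Calls over all probe sets leaned to the higher side (61.1% of 6952). They leaned to the lower side with each array centred on its median (36.2% higher) and to neither after quantile normalization (50.6% higher). In the same order, 2702, 5853 and 3285 of the 21789 probe sets were called lower, with 39 cluster genes among them under each setting. The family was chosen on this comparison, so nothing is read from the 39.

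MicroRNA genes are transcribed as long precursors that fold into stem-loops. Drosha with Dgcr8 cuts the stem-loop out in the nucleus, Dicer1 trims it in the cytoplasm, and a mature strand enters an Argonaute protein and pairs with messenger RNAs through its seed. The Dlk1-Dio3 cluster is imprinted. The chromosome from the father expresses the coding genes Dlk1, Rtl1 and Dio3. The chromosome from the mother expresses the long noncoding RNAs Meg3, Rian and Mirg, the microRNAs and many snoRNAs. The cluster is known for high expression in embryonic and newborn tissue, muscle stem cells included. These arrays measured RNA that binds probes for the stem-loop gene, so that precursors and mature strands were not separated. By the methods their RNA came from an RNeasy kit for fibrous tissue, while the separate microRNA assay used a miRVana kit. How far mature strands or short stem-loops were kept and captured on these arrays was not measured.

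The stem-loops of the 4 leading members and of Mir299a, the only member that missed the threshold, are shown for reference. They are RefSeq sequences of build GRCm38.p6, plus strand, 5′ to 3′, with the mature strands in capitals.
Mir136, chr12:109595327-109595388: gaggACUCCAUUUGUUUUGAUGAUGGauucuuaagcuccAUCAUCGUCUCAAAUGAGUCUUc
Mir434, chr12:109594506-109594599: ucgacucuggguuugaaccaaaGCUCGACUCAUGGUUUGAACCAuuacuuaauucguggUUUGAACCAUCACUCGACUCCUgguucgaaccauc
Mir127, chr12:109592846-109592915: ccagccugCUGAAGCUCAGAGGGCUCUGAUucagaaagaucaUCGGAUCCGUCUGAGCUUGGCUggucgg
Mir380, chr12:109711803-109711863: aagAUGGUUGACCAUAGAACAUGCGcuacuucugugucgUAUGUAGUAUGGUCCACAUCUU
Mir299a, chr12:109710638-109710700: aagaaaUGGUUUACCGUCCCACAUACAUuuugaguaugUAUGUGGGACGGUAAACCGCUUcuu

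The mature strands of the 4 leading members follow, with the seed, bases 2 to 8, in capitals.
miR-136-5p: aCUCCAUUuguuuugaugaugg
miR-136-3p: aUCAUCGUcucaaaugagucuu
miR-434-5p: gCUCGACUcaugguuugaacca
miR-434-3p: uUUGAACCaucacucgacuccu
miR-127-5p: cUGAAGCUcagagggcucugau
miR-127-3p: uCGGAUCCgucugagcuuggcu
miR-380-5p: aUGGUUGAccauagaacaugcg
miR-380-3p: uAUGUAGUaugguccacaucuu

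RefSeq held a stem-loop for 39 of the 40 members and 76 mature strands for all 40, with 74 distinct seeds. Only 2 seeds occurred in a pair of members, and those strands are shown with the 3p strands of Mir376b and Mir376a, known targets of RNA editing.
miR-379-3p: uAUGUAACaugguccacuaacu
miR-411-3p: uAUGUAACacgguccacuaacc
miR-376c-5p: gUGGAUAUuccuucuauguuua
miR-376b-5p: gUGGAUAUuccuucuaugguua
miR-376b-3p: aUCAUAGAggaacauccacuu
miR-376a-3p: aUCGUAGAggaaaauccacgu

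All 40 genes lie on the plus strand. Their stem-loops had 61 to 97 bases and a median GC content of 45.1%, against 51.7% over 1005 mouse stem-loops. Only the pair Mir376c and Mir376b reached 80% identity in a global alignment (80.7%), and 9 of 741 pairs reached 70%. Cross-binding between the Mir376c and Mir376b probe sets was not tested, and their log2 differences were -0.93 and -1.71.

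Every member had a lower mean on the arrays labelled KO. The log2 differences ran from -2.24 for Mir136 to -0.18 for Mir299a, with a median of -1.06 beside -0.02 over all 21789 probe sets tested. Of the 40 members, 39 passed an adjusted p under 0.05 in the direction lower on KO, where 12.4% of all probe sets did, and 0 passed in the other direction, where 19.5% of all did, out of 31.9% called in either direction. Since the family was chosen on this comparison, nothing is read from these shares. At log2 differences of -1 or lower lay 23 members, of 87 probe sets in the whole table (0.399%). The groups of 6 arrays did not overlap for 30 members, all with KO below WT (4.92% of all probe sets, and 10.5% with KO above WT). In whole muscle, fewer cells that express a gene and less RNA per cell cannot be told apart.

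**Figure D1:**
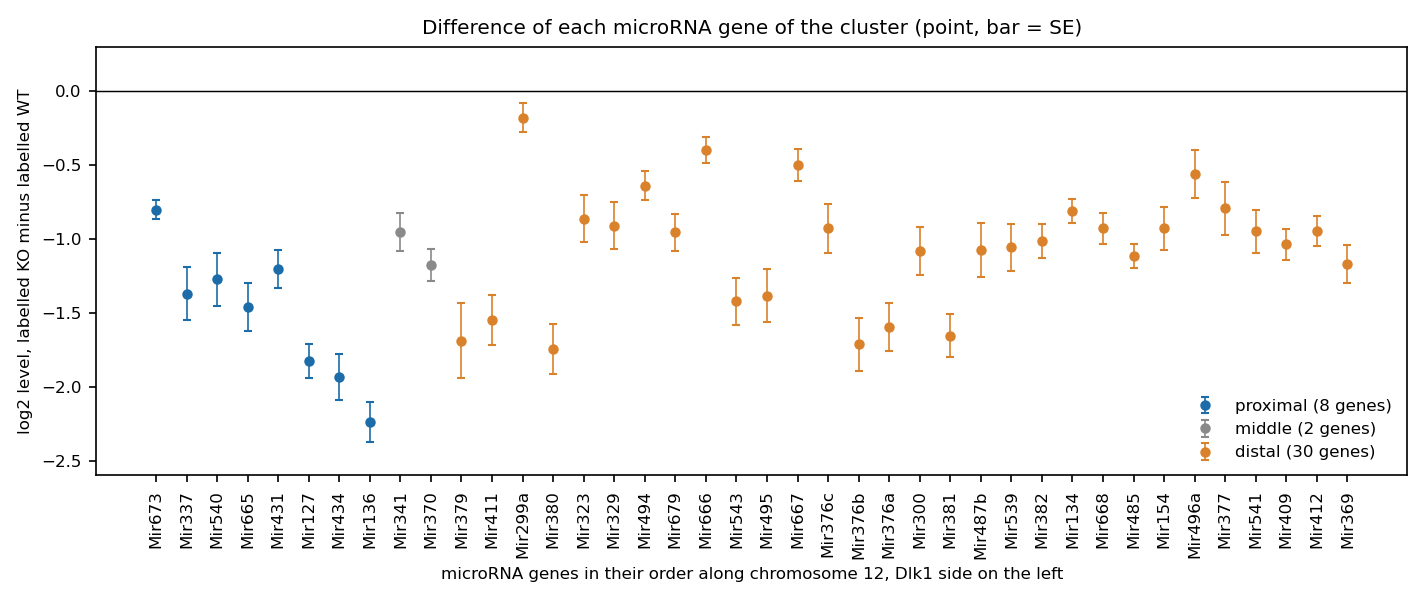
Log2 difference, labelled KO minus labelled WT, of each of the 40 microRNA genes in chromosome order from the Dlk1 side, with bars for the SE and colours for the parts of the cluster before, inside and after Rian. All points lie below 0, from -2.24 at Mir136 to -0.18 at Mir299a.

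The 8 proximal members, which lie before Rian and within the RefSeq bounds of Rtl1, held the 3 largest differences. The 3 levels given for each label here and below are the lowest, the median and the highest of 6 arrays. Mir136 had levels of 9.32, 9.63 and 10.11 on the arrays labelled WT and 7.10, 7.42 and 7.91 on those labelled KO. The highest array labelled KO lay 1.41 below the lowest labelled WT, and the difference of -2.24 ± 0.13 (SE) is a 4.72-fold lower level. Mir434 stood at 8.71, 8.92 and 9.41 on the arrays labelled WT and 6.64, 6.88 and 7.64 on those labelled KO, and it differed by -1.93 ± 0.15 (SE). Mir127 stood at 9.72, 9.89 and 10.52 on the arrays labelled WT and 8.01, 8.13 and 8.41 on those labelled KO, with a difference of -1.83 ± 0.12 (SE). The microRNAs of these genes are known to be transcribed against Rtl1 and to pair with its messenger RNA along their whole length. The groups of these 3 genes were apart by 1.07 to 1.41 on the log2 scale.

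Mir665, of the same end, stood at 10.26, 10.79 and 11.38 on the arrays labelled WT and 8.93, 9.41 and 9.69 on those labelled KO, and it differed by -1.46 ± 0.16 (SE). The remaining proximal members were Mir337 (-1.37), Mir540 (-1.27), Mir431 (-1.20) and Mir673 (-0.80), and miR-431 is known to act on Pax7 in muscle stem cells. The groups did not overlap for any of the 8. Along the proximal end the differences tended to grow, with exceptions at Mir540 and Mir431, from Mir673, the gene nearest to Meg3, to Mir136, the last before Rian. The Pearson correlation of difference and order was -0.90 over these 8 genes, which share their arrays and neighbourhood, and it was 0.14 over the 30 distal genes.

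Rian holds 2 members. Mir341 stood at 11.22, 11.45 and 11.92 on the arrays labelled WT and 10.25, 10.55 and 10.97 on those labelled KO, and it differed by -0.95 ± 0.13 (SE). Mir370 differed by -1.18 ± 0.11 (SE). The groups were apart for both, by 0.25 and 0.45.

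The 30 distal members, which lie after Rian, had a median difference of -0.98, against -1.42 for the 8 proximal members. The gap between these medians, -0.43, was -0.22 where the 40 members were split at the median member instead. Of the first 4 genes after Rian, 3 were among those with the largest differences of this part. Mir380 stood at 9.09, 9.41 and 9.81 on the arrays labelled WT and 6.94, 7.80 and 7.94 on those labelled KO, and it differed by -1.74 ± 0.17 (SE). Mir379 stood at 7.88, 8.0 and 8.76 on the arrays labelled WT and 5.30, 6.64 and 7.12 on those labelled KO, and it differed by -1.69 ± 0.25 (SE). Mir411, whose 3p strand carries the same seed as that of Mir379, stood at 8.76, 8.90 and 9.55 on the arrays labelled WT and 6.73, 7.53 and 7.83 on those labelled KO, a difference of -1.55 ± 0.17 (SE). For all 3 genes the array labelled KO3 was the lowest, and for Mir379 it stood at 5.30 where the others labelled KO lay between 6.33 and 7.12.

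Mir376b stood at 8.71, 9.09 and 9.30 on the arrays labelled WT and 6.60, 7.38 and 7.99 on those labelled KO, and it differed by -1.71 ± 0.18 (SE). Mir376a stood at 7.29, 7.60 and 7.91 on the arrays labelled WT and 5.37, 6.06 and 6.45 on those labelled KO, a difference of -1.60 ± 0.16 (SE). Mir381 stood at 8.02, 8.40 and 8.90 on the arrays labelled WT and 6.35, 6.84 and 7.10 on those labelled KO, a difference of -1.65 ± 0.14 (SE). In all 3 the arrays labelled KO lay wholly below those labelled WT. Mir543 (7.93, 8.33 and 8.66 against 6.43, 6.76 and 7.35) differed by -1.42 ± 0.16 (SE), and Mir495 (6.36, 6.69 and 7.31 against 4.92, 5.29 and 5.81) by -1.38 ± 0.18 (SE), with no overlap.

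The brightest distal members were Mir134 and Mir382. Mir134, known in neurons for its action on Limk1, the kinase that inactivates cofilin, stood at 11.5, 11.59 and 11.81 on the arrays labelled WT and 10.64, 10.76 and 11.12 on those labelled KO. It differed by -0.81 ± 0.08 (SE), and the groups were 0.38 apart. Mir382 stood at 10.47, 10.79 and 10.98 on the arrays labelled WT and 9.5, 9.71 and 10.24 on those labelled KO, with a difference of -1.01 ± 0.12 (SE). Over the 40 members, difference and mean level had a Pearson correlation of -0.02, and difference and GC content of the stem-loop 0.16 over 39, so that the difference followed neither measure closely.

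The differences nearest to 0 were those of Mir299a, Mir666 and Mir667, which all lie in the distal part. Mir299a stood at 4.33, 4.80 and 4.97 on the arrays labelled WT and 4.38, 4.51 and 4.70 on those labelled KO, the lowest mean level of the members, and its groups overlapped, with a difference of -0.18 ± 0.10 (SE). Its neighbours Mir411 and Mir380 differed by -1.55 and -1.74. Mir666 stood at 8.28, 8.46 and 8.62 on the arrays labelled WT and 7.85, 8.06 and 8.28 on those labelled KO, so that the groups met at 8.28, with a difference of -0.40 ± 0.09 (SE). Mir667 ran from 9.75 to 10.14 with a mean of 9.98 ± 0.17 (SD, n = 6) under the WT label, and from 9.15 to 9.92 with a mean of 9.48 ± 0.25 under the KO label, a difference of -0.5 ± 0.11 (SE).

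The remaining distal members differed by -1.17 (Mir369) to -0.56 (Mir496a). Mir485 had the widest gap of them, with 10.52, 10.70 and 10.88 on the arrays labelled WT and 9.38, 9.59 and 9.80 on those labelled KO. Mir369, the last gene before Dio3 that was measured, stood at 9.18, 9.40 and 9.65 on the arrays labelled WT and 7.88, 8.21 and 8.70 on those labelled KO. The groups were also apart for Mir300 (-1.08), Mir539 (-1.06), Mir409 (-1.04), Mir679 (-0.96), Mir541 (-0.95), Mir412 (-0.95), Mir668 (-0.93) and Mir494 (-0.64), although by no more than 0.03 for Mir300 and Mir539. They overlapped for Mir487b (-1.07), Mir376c (-0.93), Mir154 (-0.93), Mir329 (-0.91), Mir323 (-0.86), Mir377 (-0.79) and Mir496a (-0.56). Of the 7 members within the RefSeq bounds of Mirg, from Mir154 to Mir369, the groups of 3, Mir154, Mir496a and Mir377, overlapped.

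**Figure D2:**
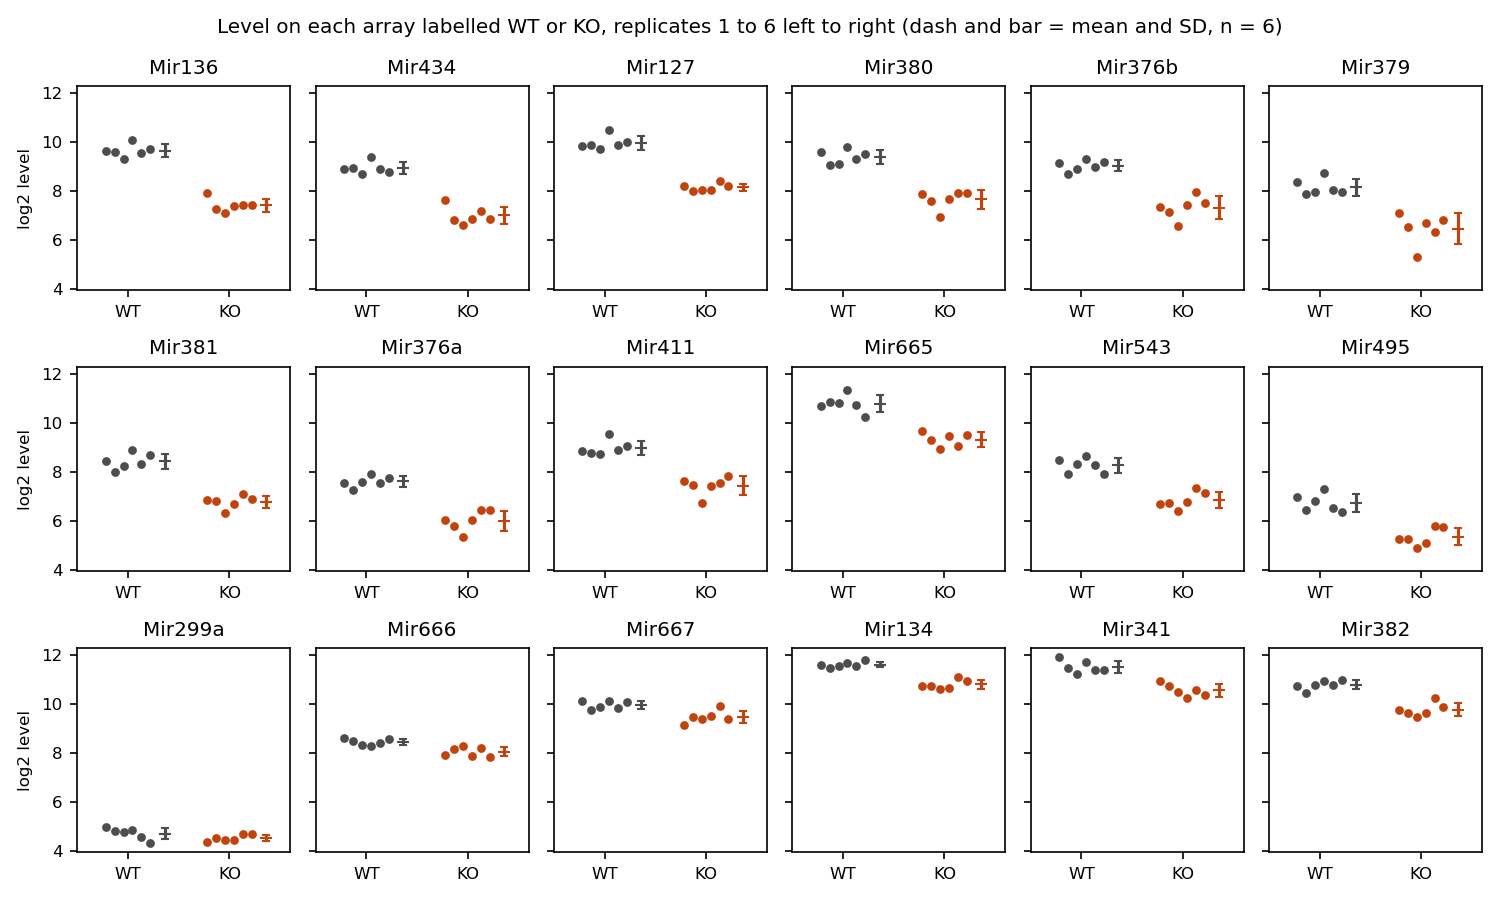
Log2 level of 18 members on each of the 12 arrays, 6 labelled WT in grey and 6 labelled KO in orange, with the mean and SD (n = 6) beside the points. The 12 members with the largest differences fill the upper rows and do not overlap, while Mir299a, Mir666 and Mir667 in the lowest row do.

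The arrays of a group shifted in common along much of the cluster, but not as 1 block. The array labelled WT4 lay above its group's mean for 39 of 40 members and KO3 below for 36, while KO1 lay above for 21 and below for 19. After each group's mean was removed, 679 of 780 pairs of members correlated above 0, with a median Pearson correlation of 0.53. The mean of the 8 proximal genes ran from 9.37 to 10.15 over the WT labels and from 7.94 to 8.46 over the KO labels. The mean of the 30 distal genes was 8.53 to 9.09 and 7.43 to 8.19. The array labelled WT4 was the highest of its group for all 8 proximal members and for 26 of 40 in all. The array labelled KO1 was the highest of its group for 6 of the 8 proximal members, and the array labelled KO5 for 26 of the 30 distal members. The lowest array labelled KO was KO3 for 21 of the 30 distal members.

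The distance between the parts differed between arrays. The proximal mean minus the distal mean ran from 0.44 to 1.18 over the WT labels and from -0.05 to 0.72 over the KO labels, with the 0.44 on WT6 and the -0.05 on KO5. After each group's mean was removed, the median Pearson correlation between 2 distal members over the 12 arrays was 0.71 (435 pairs), between 2 proximal members 0.56 (28 pairs), and between a proximal and a distal member 0.18 (240 pairs). Of 4 correlations within the groups of 6 arrays, the Pearson r of the proximal and distal means was 0.36 among those labelled WT (exact two-sided permutation p = 0.492, adjusted p = 0.698) and 0.33 among those labelled KO (exact permutation p = 0.524, adjusted p = 0.698). Spearman's rho was 0.06 (exact permutation p = 0.933, adjusted p = 0.933) and 0.71 (exact permutation p = 0.136, adjusted p = 0.544). Without the 2 arrays farthest from the median proximal level, Pearson r was -0.69 and 0.52 over the 4 arrays left, so that no relation could be shown with so few arrays.

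**Figure D3:**
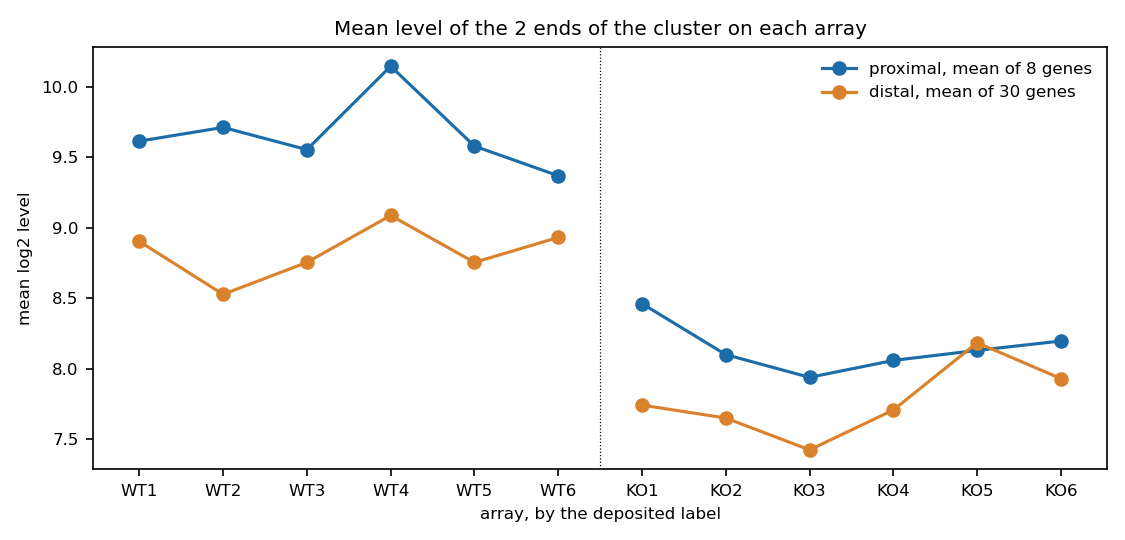
Mean log2 level of the 8 proximal and the 30 distal microRNA genes on each of the 12 arrays, by deposited label, with lines joining arrays of a group only to guide the eye. The proximal mean lies above the distal mean on every array except the array labelled KO5, where it is 0.05 lower.

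The arrays behind the overlaps were mostly the same. Of the 10 members that overlapped, all of them distal, 9 had the array labelled KO5 as the highest of its group and 8 had the array labelled WT2 as the lowest. Over all 40 members KO5 was the highest for 27 and WT2 the lowest for 24. Without KO5 the groups were apart for 37 members (5.53% of all probe sets with KO below WT), without WT2 for 36 (5.93%), and without both for 38 (6.65%). These removals were chosen after the values had been seen, and leaving out an array can only raise such a count. The widest overlap was that of Mir377, with 9.53 on KO5 and 8.91 on WT2. Adipocyte marker genes averaged 7.60 on the array labelled KO5, against 8.78 to 9.68 on the others labelled KO and 7.21 to 8.61 on those labelled WT, and their part in the distal level was not tested.

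MicroRNA genes elsewhere in the genome were lower in part. Of 247 such genes, 72 were lower by limma's adjusted p (29.1%, beside 12.4% of all probe sets), with a median difference of -0.11. By the same measure 0 were higher, beside 19.5% of all probe sets. At an unadjusted p under 0.05 there was 1 higher, and by the methods' t-test after adjustment 0. Most were dim, with a median level of 4.88 against 8.54 for the cluster. The 2 sets therefore differ in level, and they were not compared by a test. Of the genes elsewhere, 26 lay above the median level of all probe sets. All 26 had differences below 0, with a median of -0.22, and 12 were lower by limma (46.2%). The largest differences of all 247 were those of Mir27a and Mir23a, which share a transcript, at -1.39 ± 0.07 and -1.17 ± 0.05 (SE). The muscle microRNA gene Mir133a-2 differed by -1.14 ± 0.19 and Mir143, of smooth muscle, by -1.06 ± 0.10 (SE). With each array centred on its median, 128 of the 247 were lower. Lower calls over all 21789 probe sets also rose with centring, from 2702 to 5853. The nearest such genes outside the cluster on chromosome 12, Mir345 and Mir203, differed by -0.34 and -0.05, where the outermost members, Mir673 and Mir369, differed by -0.80 and -1.17.

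Other small RNA genes were counted after these values had been seen. Of 51 snoRNA genes outside the cluster, 3 were lower by limma (5.88%, beside 12.4% of all probe sets). By the same measure 0 were higher, beside 19.5% of all probe sets. At an unadjusted p under 0.05, 2 were higher, and by the methods' t-test after adjustment 0. Their median difference was -0.06. Inside the cluster 2 snoRNA genes were measured. DQ267101 differed by -1.10 ± 0.11 (SE, limma adjusted p = 1.26e-05), and DQ267102 by -0.24 ± 0.09 (adjusted p = 0.0512), which passed under several other settings.

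**Figure D4:**
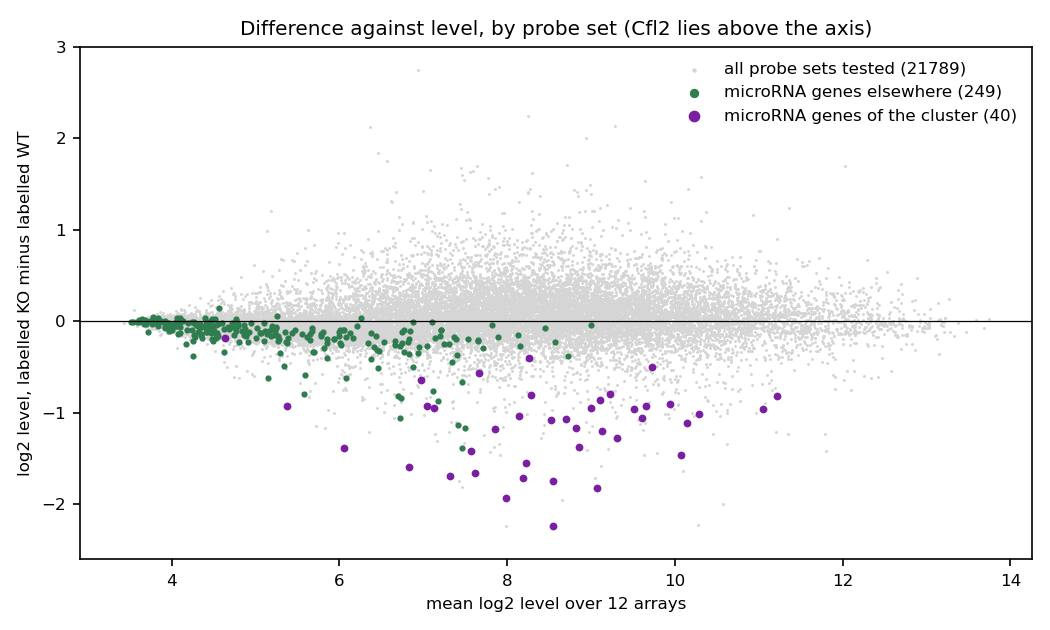
Log2 difference, labelled KO minus labelled WT, against the mean log2 level over the 12 arrays, for 21789 probe sets, with the 249 probe sets of microRNA genes elsewhere in green and the 40 of the cluster in purple; Cfl2 is above the range drawn. The cluster genes lie below 0 at every level, while the genes elsewhere have a median level of 4.88 and a median difference of -0.11.

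Of the 5 long transcripts measured, 4 were lower, to different degrees (80%, beside 12.4% of all probe sets), and Dio3 did not pass. They belong to the same interval as the members, which were chosen on this comparison, and nothing is read from this share. Rtl1 differed by -1.002 ± 0.118 (limma adjusted p = 4.16e-05) and Rian by -0.89 ± 0.10 (adjusted p = 2.18e-05), while Meg3, at a mean level of 12.70 against 13.02, differed by -0.32 ± 0.04 (adjusted p = 0.000128). Dlk1 differed by -0.11 ± 0.03 (adjusted p = 0.019) while Dio3 had a difference of -0.05 ± 0.07 (adjusted p = 0.576, SE throughout). Mirg shares its probe set with another gene and was not analysed here. After each group's mean was removed, the Pearson correlation with the mean of the members over the 12 arrays was 0.78 for Meg3, 0.68 for Rian, 0.38 for Dio3, 0.30 for Rtl1 and -0.39 for Dlk1. Of the flanking genes Begain, Wdr25, Wars and Ppp2r5c, Wars was higher (0.26 ± 0.06 SE, adjusted p = 0.00459) and the other 3 did not pass. That is 25% higher, beside 19.5% of all probe sets.

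Genes of microRNA processing differed by small amounts. Of 26 measured, 7 were lower (26.9%, beside 12.4% of all probe sets) and 5 higher (19.2%, beside 19.5%), with a median of -0.01. The split depended on the scaling, with 10 lower and 2 higher after median centring and 9 lower and 2 higher after quantile normalization. Over all 21789 probe sets, centring gave 5853 lower and 3315 higher, and quantile normalization 3285 lower and 3370 higher. Drosha, the nuclear nuclease, was higher by 0.20 ± 0.04 (SE, limma adjusted p = 0.00164). Its partner Dgcr8 was lower (-0.12 ± 0.04 SE, adjusted p = 0.0236), as was Dicer1 (-0.19 ± 0.06 SE, adjusted p = 0.0413). Among the effectors, Ago4 and Ago2 differed by -0.38 and -0.30, and Tnrc6a, which recruits the silencing machinery to Argonaute, by -0.30. Tut4, which adds uridines to microRNA precursors, differed by -0.37 ± 0.04 (adjusted p = 2.92e-05), and the RNA editing enzyme Adarb1 by -0.37 (adjusted p = 0.0349). Ran, the GTPase that moves precursors out of the nucleus, was higher by 0.36 ± 0.06 (SE, adjusted p = 0.000851), while its exporter Xpo5 differed by 0.03 (adjusted p = 0.685). Without the array labelled KO3, 4 were called lower in place of 7.

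Of 18 regulators known for this locus, 5 were higher (27.8%, beside 19.5% of all probe sets) and 4 lower (22.2%, beside 12.4%), with a median of -0.01, and with so few genes nothing is read from these shares. Mef2a, a transcription factor known to drive the cluster in muscle, differed by -0.19 ± 0.05 (SE, limma adjusted p = 0.016) and Mef2c by -0.26 ± 0.07 (adjusted p = 0.00939), while Mef2d differed by -0.03 (adjusted p = 0.593). Among genes that keep or remove DNA methylation, Tet1 was higher by 0.77 ± 0.12 (adjusted p = 0.000252), Uhrf1 by 0.69 ± 0.14 (adjusted p = 0.00204) and Dnmt1 by 0.43 ± 0.11 (adjusted p = 0.0104). Tet2 differed by -0.43 ± 0.08 (adjusted p = 0.00128). Zfp57, which protects methylation at imprinted loci, was higher by 0.47 ± 0.15 (adjusted p = 0.0232). Methylation itself was not measured.

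Markers of several cell types, but not of all, differed between the labels, and their part in the cluster's values was not tested. Of all probe sets 12.4% were called lower and 19.5% higher. The 1 Schwann cell marker measured, Mbp, and the 1 red cell marker, Alas2, did not pass (limma adjusted p = 0.516 and 0.214). Of 7 muscle fibre genes 3 were lower, Myh8 (-0.16) and the fast fibre genes Mylpf (-0.15) and Tnnt3 (-0.12), and 2 were higher, the fast fibre genes Myh4 (1.70) and Actn3 (0.54), with mean levels of 13.04 to 13.15 on the arrays labelled KO against 12.67 to 12.98. On the same arrays, 5 of 6 adipocyte markers were higher, with group ranges of the mean level of 7.60 to 9.68 against 7.21 to 8.61. Of the brown fat genes Ucp1 was higher (2.75 ± 0.60 SE, limma adjusted p = 0.00321) and Cidea did not pass (0.07), and their mean was 6.44 on KO5 and 9.80 on KO1, the ends of the range labelled KO, against 6.59 to 6.96 on the arrays labelled WT. All 4 macrophage markers were higher (9.01 to 9.23 against 8.36 to 8.81), as were all 4 endothelial markers (10.32 to 10.42 against 9.78 to 10.17). Of 6 fibroblast markers 5 were higher and 1 lower (11.48 to 11.63 against 11.07 to 11.35). Of 4 satellite cell markers 1 was higher (8.23 to 8.42 against 8.14 to 8.38). By limma 0 of 4 neutrophil markers passed, also at an unadjusted p under 0.05 and by the methods' t-test, and they averaged 8.998 on the array labelled WT4 and 5.52 to 6.01 on the others labelled WT. That array also had the highest proximal level, and without it Mir136 differed by -2.15 and 39 members were called lower. The arrays carry no detection calls, so that no floor is known for dim probe sets such as Mir299a or the neutrophil marker Ly6g.

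Outside the interval, the 10 probe sets whose levels were most like the mean of the members, after removal of each group's mean, had Pearson correlations of 0.82 to 0.92 over the 12 arrays. They stood for Ccr1, Olfr373, Snora3 with 2 probe sets, Zfp322a, 2610206C17Rik, 4930433N12Rik, Clec4a2, Pot1b and Nlrp4e. None of them passed the test between the groups. They are the highest of all probe sets outside the interval, and with 12 arrays correlations of this size are a description only.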

How the data were processed

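Total RNA of quadriceps muscle was hybridized to Affymetrix Mouse Gene ST arrays, with 6 arrays labelled KO and 6 labelled WT. The deposited values are gene level log2 values that the authors normalized with Affymetrix Power Tools, with no version, algorithm or build stated in the sources. The table names no scale, and log2 was inferred from the range. The precision is limited by 6 arrays a group. Of 35556 rows, 21789 had 1 gene symbol in the platform annotation, and symbols were updated by gene identifier from RefSeq (GRCm38.p6) for 21698 of them. A gene with several probe sets stood by the brightest. No filter on dim probe sets was used.

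Differences, KO minus WT, came from limma (version 3.58.1, R 4.3.3) with no covariate, adjusted by Benjamini-Hochberg over the 21789 probe sets. The fit was tested on simulated data. Proximal, middle and distal members start before, within and after Rian. Stem-loops were aligned with Biopython version 1.88. Permutation tests over arrays were exact. Full values are given for the 12 members with the largest differences, the 3 brightest and the 3 nearest to 0. Members and lists were chosen with earlier results of these data known. The mice were littermate pairs by the methods, but no label ties a number to a litter, and the replicate numbers did not show a pairing. Alternatives were a replicate block, other scalings, filters and variance settings, the methods' t-test and each array left out.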

Additional observations from a re-analysis of the deposited data

Results flagged for a closer look

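The 18 members given in full and means of members were examined for arrays that stood apart. Of these 42 groups of 6 arrays, 3 had an array whose gap to the next was wide for the group's range, where chance gives about 1 in 20. The other members were not examined by this rule. Some of them also had wide gaps, such as Mir377, at 8.91 on WT2 (next 9.65) and 9.53 on KO5 (next 8.78). Mir434 stood at 9.41 on the array labelled WT4, and the next array labelled WT was at 8.94. Mir380 stood at 6.94 on the array labelled KO3, with the next array labelled KO at 7.60. Mir411 stood at 6.73 on the same array, with the next at 7.44.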

How the results depend on the processing

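For the 18 members given in full, each recomputed under 20 or 21 of 25 alternatives, 374 of 375 differences kept their direction and side of the threshold. Mir299a passed once the array WT6 was left out (-0.26, adjusted p = 0.0242). The other members were recomputed only within counts and medians. Under the settings with a p threshold and all 40 members, 39 to 40 cluster genes were called lower and 0 higher. The rule of groups that do not overlap, which uses no p, counted 30. The median difference ran from -1.17 to -0.99. The filter on dim probe sets used the mean over both labels, so that some members passed it through the group labelled WT, and their count under it is not given as support. Since the family was chosen on this comparison, nothing is read from the other counts of members either. The proximal minus distal median ran from -0.58 to -0.22, the last with the split at the median member, and from -0.58 to -0.30 with an array left out. Leaving out an array gave 39 to 40 members lower, 1 to 2 snoRNA genes of the cluster (2 without KO5 or WT2), 3 to 6 snoRNA genes elsewhere (6 without KO1), and 4 to 7 processing genes lower (4 without KO3) and 3 to 5 higher (3 without KO1, KO6, WT5 or WT6). Processing genes called higher were 3 over all rows of the table and by the methods' t-test after Benjamini-Hochberg, and 2 with median centring or quantile normalization. Over all 21789 probe sets, 3315 were higher with centring and 3370 with quantile normalization, against 4250 in the main fit. With the replicate number as a block 2 processing genes were higher as well (3911 of all probe sets), while 39 members were lower. The numbers showed no pairing of the arrays, since same-numbered arrays correlated by -0.22 to 0.17 in their deviations, and 1 array labelled WT and 2 labelled KO lay closest to their own number. Both snoRNA genes of the cluster were lower, 2 in place of 1, with array weights, without dim probe sets, with median centring, with a trended robust variance and by the methods' t-test at an unadjusted p. The snoRNA genes elsewhere numbered 5 with array weights or quantile normalization, and 7 with centring or the unadjusted t-test, in place of 3. Over all 21789 probe sets, 3387 were lower with array weights, 3285 with quantile normalization and 5853 with centring, in place of 2702. Of the microRNA genes elsewhere, 128 were lower with centring, where 5853 of all 21789 probe sets were. Without dim probe sets 14 were lower, where 1792 of 10895 probe sets were, but that filter tests far fewer microRNA genes. Only 26 of the 247 lie above the median level, and 12 of these 26 were lower in the main fit. The causes of the other shifts were not tested. Non-overlap of the groups as a rule, also without KO5 and WT2, the count of snoRNA genes elsewhere and the restriction to members above the median level were chosen after seeing the data.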

Other observations

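In the interval, 3 more probe sets carry several gene symbols and are left unnamed. Their log2 differences were -1.19 ± 0.15, -0.63 ± 0.09 and -0.73 ± 0.06 (SE).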
